A study of Saccharomyces cerevisiae with 56 samples.

Results

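This comparison set starved BY4741 cells that were pretreated with cycloheximide (CHX) against starved BY4741 cells that were not, gene by gene, in mRNA and in ribosome footprints. The genes compared were those not listed as dubious ORFs that had more than 127 mRNA reads and at least 1 footprint read on the coding sequence (CDS) in both samples, and 4827 of 7133 listed features met this. Of these, 98 carried the files' mark for ribosome biogenesis (ribi) genes and 4729 did not, and the unmarked genes are described here by class. The mRNA minimum did not fall evenly: of the 171 marked genes, 53 missed it only in the -CHX sample and 0 only in the +CHX sample, while of 6178 unmarked genes 139 missed it only in the -CHX sample and 20 only in the +CHX sample. Exactly at the minimum in their lower mRNA count were 8 unmarked genes, and just outside it 3 had 127 reads. The marked genes with the lowest mRNA without CHX were therefore not among the members.

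BY4741 is a haploid MATa laboratory strain with deletion alleles of HIS3 (his3-Δ1), LEU2 (leu2-Δ0), MET17 (met15-Δ0) and URA3 (ura3-Δ0). Cells were grown in synthetic medium with glucose, amino acids, uracil and adenine (replete). A part of the culture was moved for 20 min to medium lacking amino acids (starved). The methods give the starvation medium as one without supplementation, so it also lacked uracil and adenine. The +CHX cells received CHX in the medium shortly before they were spun down, and the -CHX cells were collected by filtration and frozen without it. The drug, its solvent and the way of harvest thus changed together and cannot be told apart here. Each of these groups is 1 sample, with 1 RNA-seq and 1 footprint library. A test was therefore taken from a wider set of 10 samples (20 libraries): replete and starved +CHX samples of BY4741 and of 3 reporter strains (yJW1861, yJW1862, yJW1863), and the replete and starved -CHX samples of BY4741. The reporter strains are BY4741 derivatives. In yJW1861 and yJW1862 NOP2 was replaced by the Kluyveromyces lactis gene and a NOP2 copy was driven by the CCW12 or by its own promoter, and yJW1863 carries EGFP behind the NOP2 promoter with ADH1 UTRs.

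Ribosome assembly begins in the nucleolus, where RNA polymerase I makes the large rRNA precursor. Assembly factors, small nucleolar RNPs and helicases process the rRNA and join it to ribosomal proteins, and export factors bring the particles to the cytoplasm. The genes of this pathway are among the most strongly repressed when yeast lacks nutrients, through the kinase complex TORC1, the activator Sfp1 and the repressors Dot6, Tod6 and Stb3. CHX binds the ribosome and blocks elongation, and in yeast it is known to raise TORC1 activity.

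The starved libraries held 3812458 footprint and 12114564 mRNA reads with CHX, against 5730433 and 11394066 without it. The 20 libraries of the wider set ranged from 3632217 to 18634885 footprint reads and from 9648356 to 14773359 mRNA reads. The deleted marker URA3 had 0 mRNA reads in both starved samples, while LEU2 had 1 mRNA and 17 footprint reads in the +CHX sample and 0 and 0 in the -CHX sample. HIS3, listed with the allele his3-Δ1, was read in both starved samples, with pair differences of 0.41 in mRNA and 0.38 in footprints. MET17 went against its label in the +CHX libraries of BY4741. It had 255 footprint and 7 mRNA reads (24.6 and 0.30 RPKM) in the starved and 3.51 and 0.46 RPKM in the replete +CHX sample, against 0 in the starved -CHX sample and in the starved reporter strains. Reads on LEU2 and MET17 leave it possible that the starved BY4741 +CHX footprint library, on which every footprint and TE value of the pair rests, holds reads from other cells. Their part in the results was not tested. The starvation label fitted GCN4, the activator of amino acid synthesis whose translation rises on starvation: its footprints were 886 RPKM in starved and 22.5 RPKM in replete +CHX cells, and 1169 RPKM in starved and 36.1 RPKM in replete -CHX cells. The CDS mask differed between strains. The lengths behind the deposited RPKM left 108 bases out of each CDS in BY4741 and 33 bases in the reporter strains, so that reporter libraries also counted codons nearer the start.

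Differences are log2 of the RPKM with CHX over the RPKM without it, after subtraction of the median over all 4827 genes (0.23 for mRNA, -0.74 for footprints and -0.94 for translation efficiency, TE, the footprint RPKM over the mRNA RPKM). They are thus relative to the middle gene. For the reporter strains, each sample's own median over the -CHX sample was subtracted (-0.17 to -0.13 for footprints). RPKM values of single samples are given as deposited, with no subtraction. In bulk RNA fewer transcripts per cell and fewer cells cannot be told apart. Among the unmarked genes, 78 were at least 2-fold higher in mRNA with CHX and 30 at least 2-fold lower. Over all 4827 genes the shares past these folds were 2.13% and 0.622%. In footprints 305 unmarked genes were at least 2-fold higher and 190 at least 2-fold lower, and in TE 287 were higher and 334 lower. The shares over all 4827 genes, marked ones included, were 6.34% and 4.5% in footprints and 5.95% and 8.06% in TE. Marked genes moved together: 25 of 98 were at least 2-fold higher in mRNA, 27 at least 2-fold lower in footprints and 55 at least 2-fold lower in TE. Across the 4729 unmarked genes the mRNA and footprint differences were only weakly related (Pearson r of 0.186 across genes, which share the same 4 libraries and are not replicates).

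**Figure D1:**
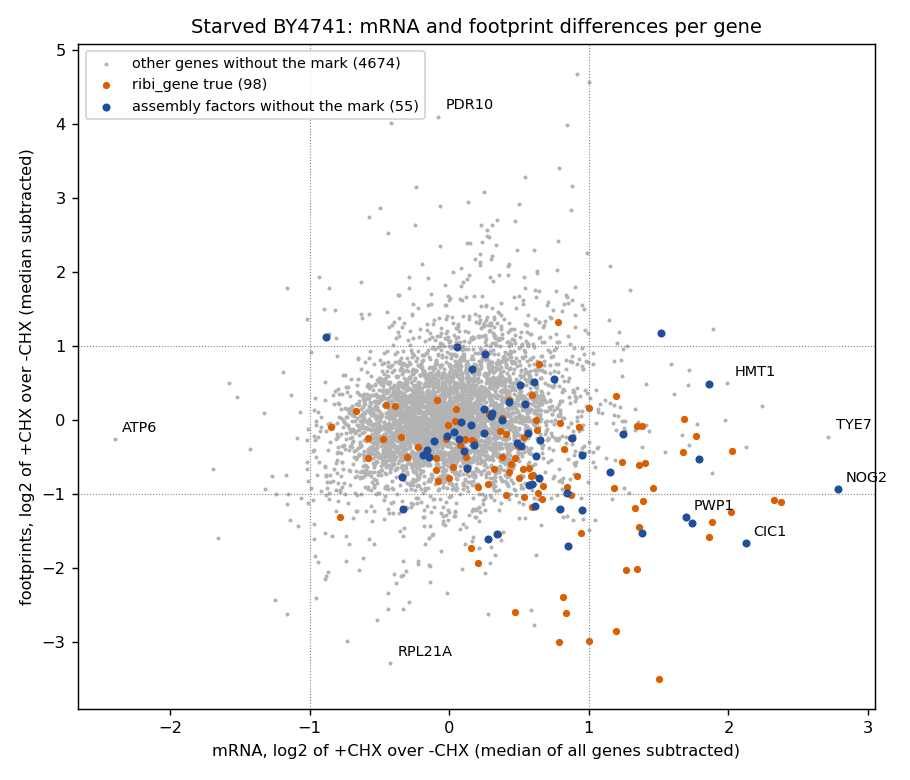
Each point is a gene in the starved pair, with the log2 difference in mRNA (+CHX over -CHX) on the horizontal axis and that in footprints on the vertical axis, the median of all genes subtracted and dotted lines at 2-fold. The 98 marked genes and the 55 assembly factors without the mark lie mostly to the right of and below the middle, with NOG2 at 2.79 in mRNA and PDR10 at 4.10 in footprints.

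The edgeR quasi-likelihood fit over the 10 samples used the strain as a block and Benjamini-Hochberg adjustment over 5044 genes. Among the 4711 unmarked genes of the pair that it tested, it called 953 higher and 939 lower in mRNA. It called 405 of them higher and 423 lower in footprints, and 564 higher and 619 lower in TE. The 5044 genes include marked genes and genes below the pair's minimums. Over all of them the shares called higher and lower were 22.8% and 19.1% in mRNA, 8.33% and 10.2% in footprints, and 11.4% and 15.6% in TE. "Rose" and "fell" below mean such a call at an adjusted p under 0.05. The fit assumes that the single -CHX samples vary like the +CHX samples and share BY4741's own deviations from the other strains. Without the strain block it called 266 and 130 in mRNA, 0 and 0 in footprints, and 23 and 77 in TE. At an unadjusted p under 0.05, 214 of the 4711 unmarked genes were higher and 195 lower in footprints without the block. DESeq2 with the block called 472 unmarked genes higher and 350 lower.

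The reporter strains gave a further look at the same -CHX sample. Of the 78 genes at least 2-fold higher in mRNA, 77 were called and 75 were higher in all 4 starved +CHX samples (31.7% of 4821 genes were). Of the 190 genes at least 2-fold lower in footprints, 149 were called, but only 67 were lower in all 4 samples, where 20.4% of all genes were. With the CDS mask matched, by adding each reporter strain's change from replete to starved to the replete BY4741 +CHX sample, 177 of the 190 were lower in all 4 (32.8% of 4806 genes were). These matched values share the -CHX sample and the replete BY4741 sample, and the fit rests on the same differences. Among unmarked genes called in the fit, 99.3% to 100% in each measure and direction had all 4 matched values on the called side, so the matched counts are no separate support. The matching also takes out any other difference of a strain or its libraries from BY4741, so the mask and these cannot be told apart. Of the 334 genes at least 2-fold lower in TE, 262 were called and 248 were lower in all 4 samples without the matching (29.4% of all genes were).

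Factors that assemble ribosomes but lack the mark had medians on the same side of the middle as the marked genes in all 3 measures. Of 78 such factors, 55 met the minimums. Their median mRNA difference was 0.51, against -0.01 for all unmarked genes, and 31 rose in mRNA while 2 fell. Their median footprint difference was -0.33 (5 rose, 17 fell) and their median TE difference -0.77 (2 rose, 27 fell). The marked genes had medians of 0.55, -0.59 and -1.14. In mRNA, 41 of the 55 were higher and 1 was lower in all 4 starved +CHX samples than in the -CHX sample, and 22 were called higher without the strain block. The footprint median was between -0.08 and -0.02 with a reporter strain in place of BY4741 and between -0.60 and -0.45 with the mask matched. The mRNA median was between 0.56 and 0.63 with a reporter strain in place of BY4741, over the same -CHX sample.

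NOG2 (YNR053C), a GTPase of the nuclear large subunit precursor, had the largest mRNA gain of these factors. Its mRNA was 56.2 RPKM in BY4741 +CHX and 72.6, 61.9 and 60.6 RPKM in yJW1861, yJW1862 and yJW1863 +CHX, against 6.95 RPKM in BY4741 -CHX. All 4 +CHX samples lay far above the -CHX sample. The pair difference was 2.79 (95% counting interval 2.56 to 3.02, from 1446 and 181 reads), and the fit gave 2.91 ± 0.16 (SE; edgeR adjusted p = 1.7e-05). Its footprints, 17 reads with CHX and 55 without, differed by -0.93 and were not called (edgeR adjusted p = 0.16), and its TE fell by 3.54 in the fit (SE 0.39, adjusted p = 0.00014).

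CIC1 (YHR052W), a nucleolar protein of the large subunit precursor, had 34.7 mRNA RPKM in BY4741 +CHX and 43.5, 41.5 and 35.4 RPKM in the reporter strains +CHX, against 6.78 RPKM in BY4741 -CHX (fit 2.21 ± 0.18, edgeR adjusted p = 5.5e-05). Its footprints were 2.09 RPKM in BY4741 +CHX and 9.12, 7.46 and 5.93 RPKM in the reporter strains +CHX, against 11.0 RPKM in BY4741 -CHX (fit -1.40 ± 0.29, adjusted p = 0.013). More message and fewer footprints stood side by side in this gene, though the footprint difference after subtraction was -1.65 in BY4741 and only -0.13, -0.43 and -0.72 in the reporter strains. ARX1 (YDR101C), an export factor of the large subunit, had 17.6 mRNA RPKM in BY4741 +CHX and 17.9, 19.4 and 19.4 RPKM in the reporter strains +CHX, against 5.77 RPKM in BY4741 -CHX. Its footprints were 1.20 RPKM in BY4741 +CHX and 2.40, 2.64 and 2.46 RPKM in the reporter strains +CHX, against 5.78 RPKM in BY4741 -CHX. ARX1 rose in mRNA (1.35 ± 0.13, adjusted p = 0.00016) and fell in footprints (-1.52 ± 0.25, adjusted p = 0.0049), and in both measures the 4 +CHX samples were on the same side of the -CHX sample, also after subtraction (footprints -1.53 in BY4741, -1.13 in yJW1861 and -1.06 in yJW1863).

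PWP1 (YLR196W), a WD-repeat protein of rRNA processing, and DBP2 (YNL112W), a DEAD-box RNA helicase, showed the same 2 changes. PWP1 mRNA was 16.7 RPKM in BY4741 +CHX and 22.5, 19.4 and 18.9 RPKM in the reporter strains +CHX, against 4.39 RPKM in BY4741 -CHX. PWP1 footprints were 1.82 RPKM in BY4741 +CHX and 2.09, 3.65 and 4.25 RPKM in the reporter strains +CHX, against 7.55 RPKM in BY4741 -CHX. DBP2 rose in mRNA by 1.62 ± 0.23 (edgeR adjusted p = 0.00083) and fell in footprints by 1.55 (SE 0.25, adjusted p = 0.0046). AIR1, NAF1, RRP9, SHQ1 and SRP40 were the other unmarked assembly factors at least 2-fold higher in mRNA, several of them small nucleolar RNP proteins or their assembly helpers. NAF1 and TAH1 were the only ones at least 2-fold higher in footprints. EBP2, ESF1, NMD3, NOP1, NOP10, RMP1 and URB2 joined ARX1, CIC1, DBP2 and PWP1 among the 11 at least 2-fold lower in footprints.

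**Figure D2:**
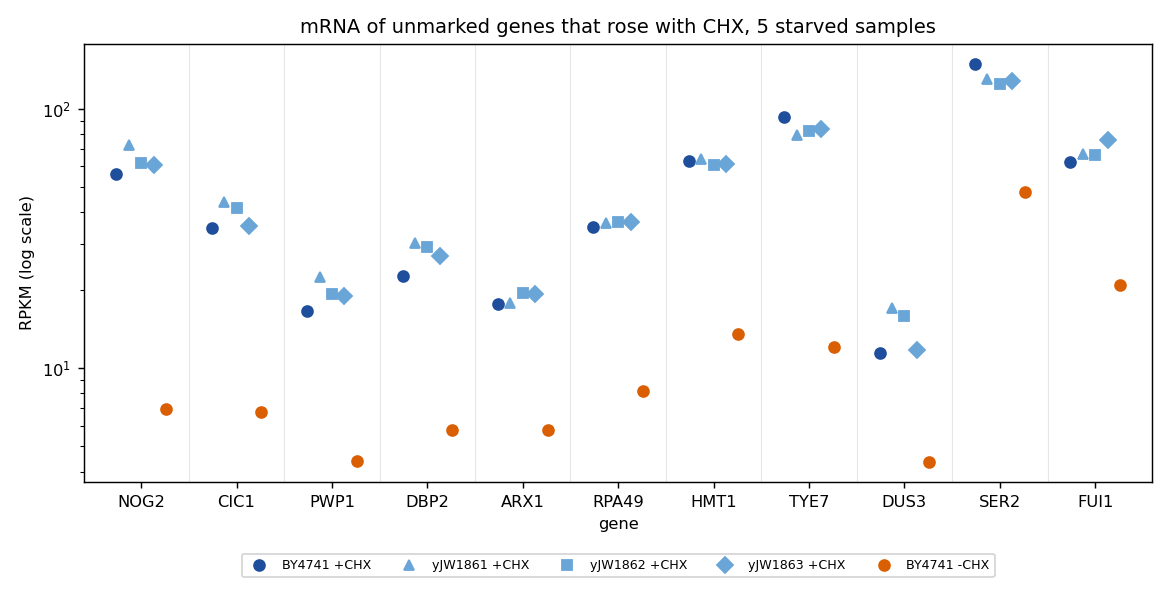
mRNA in RPKM (log scale) of 11 genes that rose with CHX, with 1 point for each of the 4 starved +CHX samples and, rightmost in each gene, the starved BY4741 -CHX sample. Every +CHX point lies above the -CHX point, for example 63.1, 63.7, 60.7 and 61.2 RPKM against 13.6 RPKM for HMT1.

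Of the genes of RNA polymerase I, which makes the rRNA precursor, 9 of 15 met the minimums, with a median of 0.29 in mRNA (4 rose, 0 fell), -0.69 in footprints (0 rose, 4 fell) and -0.79 in TE (0 rose, 5 fell). RPA49 (YNL248C), a subunit that stimulates elongation, had 35.1 mRNA RPKM in BY4741 +CHX and 36.3, 36.6 and 36.6 RPKM in the reporter strains +CHX, against 8.16 RPKM in BY4741 -CHX (fit 1.80 ± 0.13, edgeR adjusted p = 3e-05). The 4 +CHX samples were nearly the same and all were above the -CHX sample. RPA135 (YPR010C), the second largest subunit, rose in mRNA by 0.70 ± 0.16 (adjusted p = 0.0091), with 21.7 RPKM in BY4741 +CHX and 26.9, 24.3 and 22.7 RPKM in the reporter strains +CHX, against 10.9 RPKM in BY4741 -CHX. Its footprints fell to 2.58 RPKM in BY4741 +CHX, against 9.91 RPKM in BY4741 -CHX (adjusted p = 0.01). The largest subunit, RPA190, was not called in mRNA (pair difference 0.13, adjusted p = 0.56) and fell in footprints (adjusted p = 0.018). RRN3, which brings the polymerase to the rDNA promoter, rose in mRNA (1.05, adjusted p = 0.0023). With reporter strains in place of BY4741 the class median in footprints lay between 0.13 and 0.20, and with the mask matched between -0.81 and -0.48.

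RNA polymerase III, which makes tRNA and 5S rRNA, had few calls. Its 16 members had medians of 0.08 in mRNA and -0.51 in footprints, where 0 rose and 3 fell. RPC82 footprints were 1.98 RPKM in BY4741 +CHX and 3.82, 2.55 and 3.93 RPKM in the reporter strains +CHX, against 6.17 RPKM in BY4741 -CHX (adjusted p = 0.023). After subtraction these differences were -0.90 in BY4741 and -0.55, -1.15 and -0.48 in the reporter strains, all on the low side. RPC19, a subunit shared with RNA polymerase I, rose in mRNA by 1.25 in the pair (adjusted p = 0.00017). The class median in footprints was between -0.12 and 0.05 with a reporter strain in place of BY4741 and between -0.54 and -0.32 with the mask matched. RNA polymerase II subunits (11 genes) had a footprint median of -0.43, with 1 rise and 4 falls, but the median was between -0.10 and 0.09 with a reporter strain in place of BY4741 and between -0.28 and 0.01 with the mask matched.

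Enzymes that modify or process tRNA gained mRNA as a class. Of 63 listed, 52 met the minimums. The median was 0.33 in mRNA, with 25 rises and 3 falls, and -0.46 in TE, with 1 rise and 18 falls. In mRNA, 36 were higher and 2 lower in all 4 starved +CHX samples, and 17 were called higher without the strain block. DUS3 (YLR401C), a dihydrouridine synthase, had 11.4 RPKM in BY4741 +CHX and 17.1, 16.0 and 11.7 RPKM in the reporter strains +CHX, against 4.35 RPKM in BY4741 -CHX, and rose by 1.16 (adjusted p = 0.00044). ELP3, the catalytic subunit of the Elongator complex that modifies wobble uridines, rose by 1.04 in the pair, with 16.4 RPKM in BY4741 +CHX and 16.1, 15.2 and 17.8 RPKM in the reporter strains +CHX, against 6.81 RPKM in BY4741 -CHX (adjusted p = 0.00035). KTI12, SEN15, TRM2, TRM5 and TRM82 were also at least 2-fold higher. Footprints of DUS3 fell (-1.02 ± 0.23, adjusted p = 0.018), while those of ELP2, with a pair difference of -1.02, were not called (adjusted p = 0.089).

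Of the unmarked genes on none of the lists, 3312 met the minimums, with a median of 0.02 in mRNA. Of the 3297 of these that were tested, 688 rose in mRNA and 597 fell. These shares are close to those of all unmarked genes tested (953 and 939 of 4711), so they set this group apart in no way. Single genes outside the making of ribosomes and tRNA nevertheless differed strongly. HMT1 (YBR034C), an arginine methyltransferase of RNA-binding proteins, rose by 2.04 ± 0.12 (edgeR adjusted p = 1.7e-05), with 63.1 RPKM in BY4741 +CHX and 63.7, 60.7 and 61.2 RPKM in the reporter strains +CHX, against 13.6 RPKM in BY4741 -CHX. TYE7 (YOR344C), a transcription factor of glycolytic genes, had 93.2 RPKM in BY4741 +CHX and 79.0, 82.0 and 83.4 RPKM in the reporter strains +CHX, against 12.1 RPKM in BY4741 -CHX. Neither gene's +CHX samples overlapped its -CHX sample. RPL22B (YFL034C-A), the minor copy of a large subunit protein gene, rose by 2.30 ± 0.17 (adjusted p = 3.3e-05), though reads that RPL22A and RPL22B share were left uncounted, so its level is that of its unique positions.

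Several genes of amino acid and nucleotide supply rose with CHX, although their classes did not move as a whole. Amino acid synthesis (68 genes) had a median of -0.07 in mRNA, with 10 rises and 11 falls. SER2, the last step of serine synthesis, nevertheless had 149 RPKM in BY4741 +CHX and 130, 125 and 127 RPKM in the reporter strains +CHX, against 47.9 RPKM in BY4741 -CHX (adjusted p = 8.9e-05). PRO1, the first step of proline synthesis, rose by 1.26 ± 0.11 (adjusted p = 9.7e-05), and GLN1, glutamine synthetase, by 1.30 ± 0.19 (adjusted p = 0.0011). In purine synthesis (34 genes, median 0.06, 9 rises and 7 falls) HPT1, which salvages hypoxanthine and guanine, had 177 RPKM in BY4741 +CHX, against 69.3 RPKM in BY4741 -CHX (adjusted p = 0.00029). GUA1, GMP synthetase, rose by 0.78 ± 0.14 (adjusted p = 0.0025). The uridine permease FUI1 had 62.4 RPKM in BY4741 +CHX and 66.9, 66.1 and 75.7 RPKM in the reporter strains +CHX, against 20.8 RPKM in BY4741 -CHX (adjusted p = 6.4e-05), and the uracil permease FUR4 rose by 0.96 ± 0.19 (adjusted p = 0.0038).

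Cyclins and cell cycle regulators (30 genes) had a median of 0.31 in mRNA, with 16 rises and 0 falls. PCL1, a G1 cyclin, had 134 RPKM in BY4741 +CHX and 139, 139 and 118 RPKM in the reporter strains +CHX, against 49.3 RPKM in BY4741 -CHX (adjusted p = 0.00012). FAR1, the inhibitor that arrests cells in G1 on pheromone, rose by 1.06 ± 0.11 (adjusted p = 0.00017). Mitochondrial ribosomal proteins (73 genes) had a median of 0.17, with 32 rises and 4 falls, and 42 were higher and 4 lower in all 4 starved +CHX samples. Splicing factors (62 genes) had a median of 0.16, with 18 rises and 3 falls. In footprints 0 of them rose and 15 fell, with a median of -0.14 that was between 0.03 and 0.17 with a reporter strain in place of BY4741 and between -0.53 and -0.37 with the mask matched. Without the matching 12 of the 62 were higher and 15 lower in all 4 starved +CHX samples (20.7% and 20.4% of all genes were). CWC2, a factor of the spliceosome core, rose in mRNA (adjusted p = 0.0025) and fell in footprints to 3.25 RPKM in BY4741 +CHX and 7.09, 9.76 and 8.35 RPKM in the reporter strains +CHX, against 13.4 RPKM in BY4741 -CHX (adjusted p = 0.019). Called without the strain block were 6 cyclin genes and 10 mitochondrial ribosomal protein genes.

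The classes that lost mRNA served respiration, the vacuole, the secretory pathway, protein breakdown and the cytoskeleton. The nuclear-encoded respiratory chain and ATP synthase (37 genes) had a median of -0.44, with 0 rises and 19 falls, and 33 were lower in all 4 starved +CHX samples. The vacuolar ATPase, which acidifies the vacuole, had a median of -0.50 over 19 genes, with 0 rises and 14 falls. ER translocation and glycosylation (54 genes) had -0.34 with 1 rise and 27 falls, the proteasome (37 genes) -0.34 with 2 rises and 19 falls, and the actin cytoskeleton (35 genes) -0.34 with 0 rises and 19 falls. These median losses were smaller than the gains of the assembly factors, and without the subtraction of the median they lay between -0.27 and -0.11. The proteasome median was -0.01 with yJW1861 in place of BY4741.

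VMA16, a subunit of the vacuolar ATPase membrane ring, had 206 mRNA RPKM in BY4741 +CHX and 231, 238 and 244 RPKM in the reporter strains +CHX, against 263 RPKM in BY4741 -CHX (fit -0.61 ± 0.09, edgeR adjusted p = 0.00098). COX7, a subunit of cytochrome c oxidase, had 253 RPKM in BY4741 +CHX and 231, 223 and 275 RPKM in the reporter strains +CHX, against 438 RPKM in BY4741 -CHX (adjusted p = 0.00035). The +CHX samples were lower in both genes, by a small step in VMA16 and a larger one in COX7. SSH1, a translocon subunit, COF1, the actin-severing protein cofilin, and RPT2, a proteasome ATPase, fell by 0.67, 0.73 and 0.82 in the fit. The falls of at least 2-fold numbered 30, of which 26 were lower in all 4 starved +CHX samples (31.4% of all genes were) but only 4 were called without the strain block. The largest was ATP6 (Q0085), a mitochondrially encoded subunit of ATP synthase, with 22.2 RPKM in BY4741 +CHX and 48.0, 58.6 and 65.0 RPKM in the reporter strains +CHX, against 99.8 RPKM in BY4741 -CHX (adjusted p = 1.7e-05). Mitochondrially encoded genes, a list added after their values were seen, had a median mRNA difference of -0.72 over 14 genes, with 0 rises and 12 falls. In ATP6 the BY4741 +CHX sample lay below the reporter strains. The footprint median of these 14 genes was -1.29, with 9 at least 2-fold lower, and it was -2.20 in replete cells. The starved footprint median was between -1.05 and 0.07 with a reporter strain in place of BY4741, and between -1.49 and -0.39 with the mask matched.

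**Figure D3:**
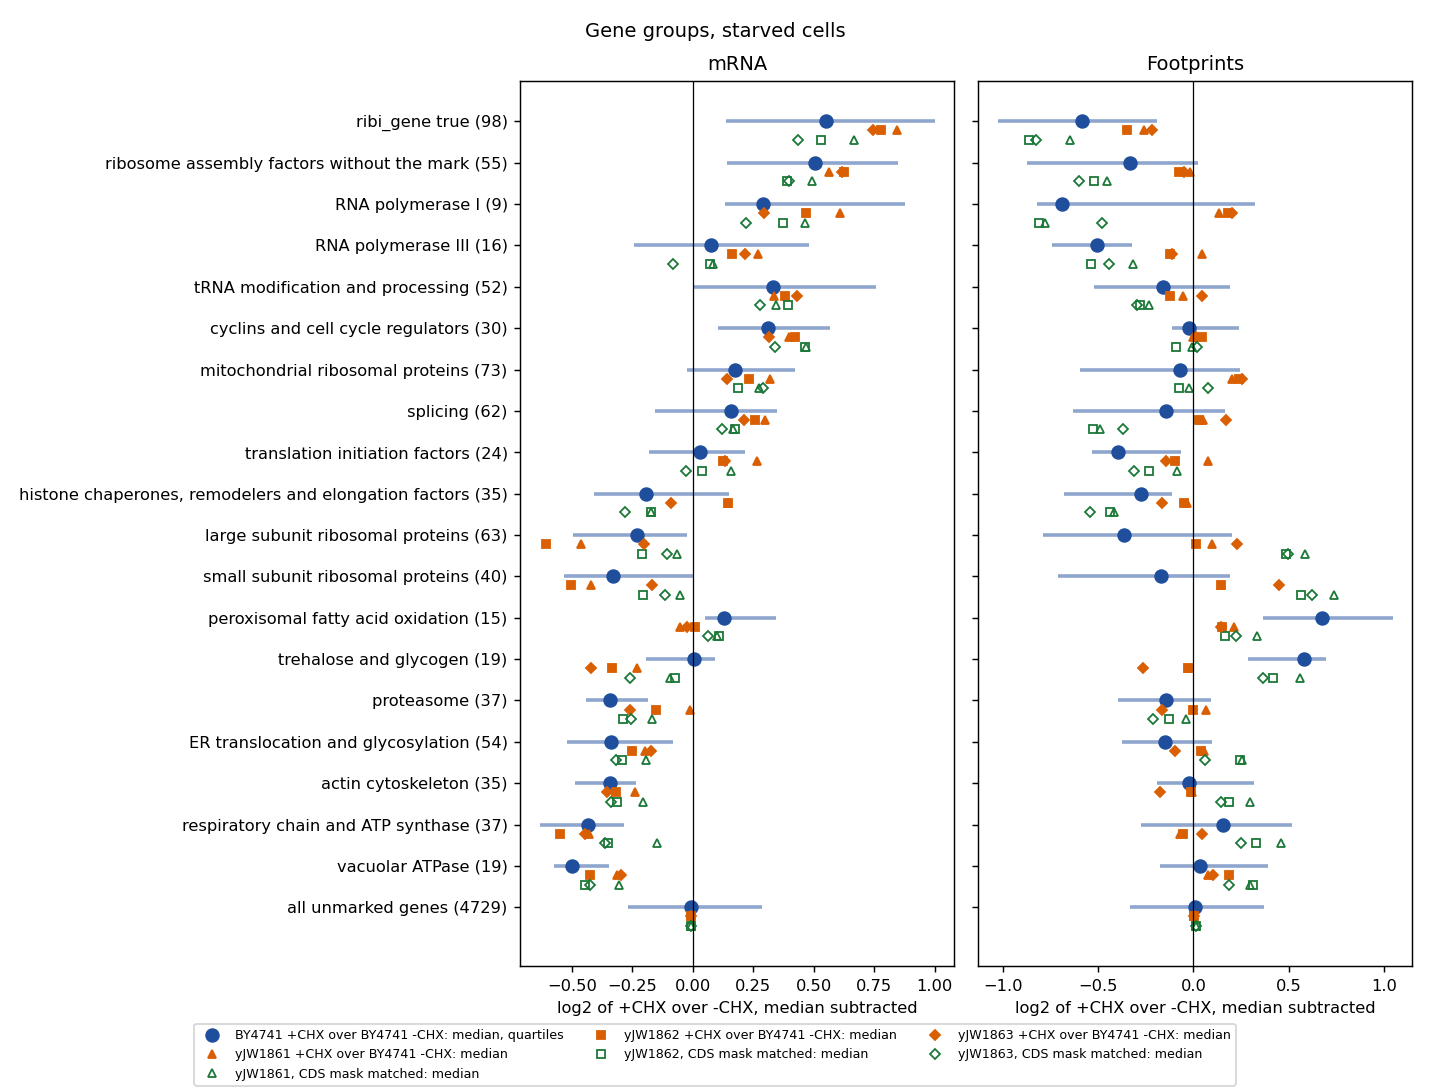
Class medians of the log2 difference (+CHX over -CHX) in mRNA, left, and footprints, right, with the number of genes in brackets. Blue points and bars are the BY4741 pair with its quartiles, filled orange marks are medians with a reporter strain in place of BY4741, and open green marks are the same with the CDS mask matched. Assembly factors lie at 0.51 in mRNA and the vacuolar ATPase at -0.50, and the footprint medians of ribosomal proteins change sign with the strain.

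Footprint differences of at least 2-fold, both losses and gains, were most frequent in short genes. Unmarked genes were split by gene length into 5 groups of about equal size. In the shortest group 83 genes (8.74%) were at least 2-fold lower, and in the following groups 42, 27, 21 and 17 (4.42%, 2.88%, 2.23% and 1.80%). Gains of at least 2-fold numbered 90, 79, 56, 56 and 24 in the same groups, from shortest to longest. The standard deviation of the footprint difference across genes was 0.83 in the shortest group and 0.54 in the longest. The group medians were 0.02, 0.08, 0.04, 0.04 and -0.10, so short genes were spread more widely and were not lower as a group. With at least 32 footprints in both samples the losses still numbered 52, 31, 17, 13 and 12. A fixed mask takes a larger part of a short CDS, and the part played by the masked codons and by low counts in these losses was not tested.

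Several of the largest footprint losses in genes with at least 32 footprints on average were in small proteins, some with few reads. RPL21A (YBR191W), a large subunit protein with a near-identical copy, had 49.6 RPKM in BY4741 +CHX and 336, 351 and 385 RPKM in the reporter strains +CHX, against 800 RPKM in BY4741 -CHX (fit -2.80 ± 0.23, edgeR adjusted p = 0.0005), from 18 and 295 reads in BY4741. All 4 +CHX samples were below the -CHX sample, but BY4741 stood far below the others. RPL39 (YJL189W), a very small large subunit protein, had 79.0 RPKM in BY4741 +CHX and 1905, 1872 and 1889 RPKM in the reporter strains +CHX, against 780 RPKM in BY4741 -CHX, so that only BY4741 was lower. RPB10, a small subunit shared by the RNA polymerases, had 33.8 RPKM in BY4741 +CHX and 302, 274 and 258 RPKM in the reporter strains +CHX, against 347 RPKM in BY4741 -CHX. SUI1, initiation factor eIF1, had 59.2 RPKM in BY4741 +CHX and 495, 402 and 384 RPKM in the reporter strains +CHX, against 291 RPKM in BY4741 -CHX. HSK3, a kinetochore protein of the DASH complex, had 8.13 RPKM in BY4741 +CHX and 318, 277 and 255 RPKM in the reporter strains +CHX, against 108 RPKM in BY4741 -CHX, from only 7 reads with CHX and 94 without in BY4741. Unmatched values of RPL39, SUI1 and HSK3 in the reporter strains thus lay on the other side of the -CHX sample. With the mask matched, these 5 genes were lower in all 4 samples, and without the strain block the fitted differences of RPL39, RPB10, SUI1 and HSK3 turned positive.

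**Figure D4:**
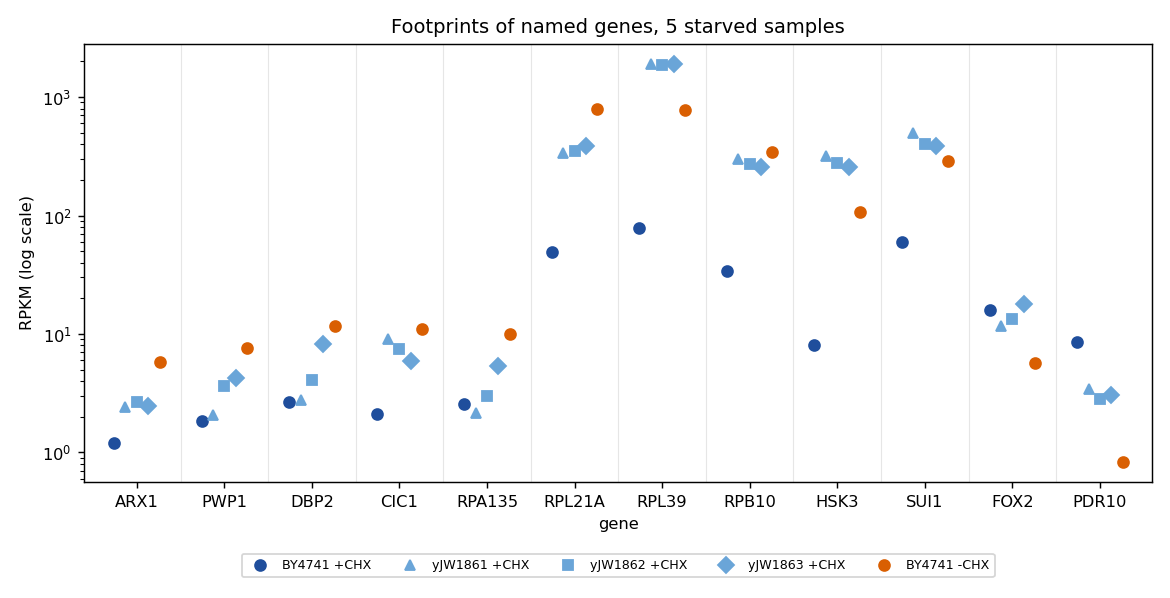
Footprints in RPKM (log scale) of 12 genes in the 4 starved +CHX samples and, rightmost in each gene, the starved BY4741 -CHX sample. The +CHX points of ARX1, PWP1, DBP2, CIC1 and RPA135 lie below the -CHX point, and their differences stay below 0 after each sample's median is subtracted, which the plotted RPKM do not show. In RPL39, HSK3 and SUI1 only BY4741 is below it and the reporter strains, whose CDS mask left out 33 bases in place of 108, are above.

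Ribosomal proteins themselves went different ways. The large subunit (63 genes) had medians of -0.23 in mRNA (9 rises, 25 falls) and -0.37 in footprints (6 rises, 8 falls), and the small subunit (40 genes) -0.33 in mRNA (4 rises, 13 falls) and -0.17 in footprints (5 rises, 5 falls). With the mask matched, the reporter strains gave footprint medians of 0.49 to 0.58 for the large and 0.56 to 0.74 for the small subunit, so no direction in footprints held for these classes. Translation initiation factors (24 genes) had a footprint median of -0.39 (0 rises, 4 falls), which was between -0.14 and 0.07 with a reporter strain in place of BY4741 and between -0.31 and -0.09 with the mask matched. TIF4632, a copy of eIF4G, had 15.6 RPKM in BY4741 +CHX and 45, 40.1 and 34.4 RPKM in the reporter strains +CHX, against 51.2 RPKM in BY4741 -CHX (adjusted p = 0.0035). After subtraction its differences were -0.98 in BY4741 and only -0.04, -0.22 and -0.40 in the reporter strains. SUI2, the alpha subunit of eIF2, fell as well (adjusted p = 0.014). Histone chaperones, chromatin remodelers and transcription elongation factors (35 genes) had -0.27 (1 rise, 13 falls). Without the matching 16 of them were lower in all 4 starved +CHX samples (20.4% of all genes were). Their matched medians in the reporter strains lay between -0.54 and -0.42.

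Of the 305 genes at least 2-fold higher in footprints, 204 were called and 223 were higher in all 4 starved +CHX samples (20.7% of all genes were). On the class lists were 64 of the 305. PDR10 (YOR328W), an ABC transporter, had 8.50 RPKM in BY4741 +CHX and 3.42, 2.81 and 3.04 RPKM in the reporter strains +CHX, against 0.829 RPKM in BY4741 -CHX (fit 3.71 ± 0.57, edgeR adjusted p = 0.0041). KAR5, needed for nuclear fusion in mating, had 18.1 RPKM in BY4741 +CHX and 7.74, 8.02 and 10.7 RPKM in the reporter strains +CHX, against 1.91 RPKM in BY4741 -CHX (adjusted p = 0.001). In both genes all +CHX samples were higher, and BY4741 was the highest. Peroxisomal fatty acid oxidation (15 genes) had a footprint median of 0.68, with 5 rises and 0 falls, but of only 0.15 to 0.21 with a reporter strain in place of BY4741 and 0.17 to 0.33 with the mask matched. FOX2, an enzyme of that pathway, had 15.9 RPKM in BY4741 +CHX and 11.6, 13.3 and 17.8 RPKM in the reporter strains +CHX, against 5.71 RPKM in BY4741 -CHX (adjusted p = 0.0014). ACS1, acetyl-CoA synthetase, and PCK1, the first committed enzyme of gluconeogenesis, had pair differences of 3.14 and 2.92 (adjusted p = 0.0025 and 0.0065). Trehalose and glycogen genes (19) had 0.58 with 6 rises and 0 falls. Reporter strains in place of BY4741 gave -0.27 to -0.03, and 0.37 to 0.56 with the mask matched. Without the subtraction of the median both medians were negative, at -0.06 for peroxisomal oxidation and -0.16 for trehalose and glycogen.

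Gains of mRNA and losses of footprints seldom met in 1 gene. Of the 4711 unmarked genes tested, 68 rose in mRNA and fell in footprints, 84 rose in both and 801 rose in mRNA with no call in footprints. Falls in footprints without a call in mRNA numbered 224. Among 97 marked genes 28 rose in mRNA and fell in footprints. With the mask matched, 26 of the 55 unmarked assembly factors were higher in mRNA and lower in footprints in all 4 samples. Among all unmarked genes 525 of 4709 were. Without the matching these counts were 19 of 55 and 297 of 4724. TE divides footprints by mRNA. In assembly factors, RNA polymerase I, tRNA enzymes, cyclins, mitochondrial ribosomal proteins and splicing, low TE came with higher mRNA and footprints near or below the middle. Other classes had low TE with lower footprints and mRNA near or below the middle. Their TE and mRNA medians were -0.55 and 0.02 (RNA polymerase II), -0.35 and 0.08 (RNA polymerase III), -0.37 and 0.03 (initiation factors), and -0.21 and -0.19 (histone chaperones). In HMT1 TE fell by 1.57 (SE 0.19, edgeR adjusted p = 0.00028), though its footprints lay above the middle. Their pair difference was 0.50, which was not called (edgeR adjusted p = 0.11). On the other side the respiratory chain and ATP synthase had a TE median of 0.74, with 20 rises and 4 falls, which was -0.20 without the subtraction of the median. ATP15, a subunit of ATP synthase, fell in mRNA (adjusted p = 0.0046) and rose in footprints, with 886 RPKM in BY4741 +CHX and 930, 1082 and 1092 RPKM in the reporter strains +CHX, against 526 RPKM in BY4741 -CHX (adjusted p = 0.0016).

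The regulators of the pathway did not share 1 pattern. DOT6, a repressor of ribi genes, was not called in mRNA (adjusted p = 0.36) and rose in footprints, with 74.0 RPKM in BY4741 +CHX and 72.1, 67.6 and 77.3 RPKM in the reporter strains +CHX, against 64.3 RPKM in BY4741 -CHX (adjusted p = 0.0055). STB3, another repressor, rose in mRNA by 0.51 ± 0.10 (adjusted p = 0.004), and so did the activator SFP1 (pair difference 0.33, adjusted p = 0.013). TOD6, the paralog of DOT6, missed the minimum in the -CHX sample, with 178 mRNA reads with CHX and 58 without, and is given here as counts only. Of other genes the study uses, GCN4, RIO1 and ACT1 were not called in mRNA, HAC1 had a pair difference of -0.90 (adjusted p = 0.0026), and CCW12, a cell wall protein gene, rose in footprints (pair difference 1.08, adjusted p = 0.034). NOP2, a marked rRNA methyltransferase gene altered in yJW1861 and yJW1862, was left out of the fit. Its pair differences were 1.23 in mRNA (counting interval 1.03 to 1.45) and -0.56 in footprints (-1.22 to 0.07).

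The same pair of harvests was made from replete cells, which shows whether the CHX difference went with starvation. The difference of the 2 CHX effects was called in mRNA for 150 unmarked genes as higher in starved cells and for 38 as lower, and in footprints for 7 and 8. The shares over all 5044 genes tested, marked ones included, were 4.92% and 0.793% in mRNA and 0.139% and 0.377% in footprints. Assembly factors without the mark had a median mRNA difference of 0.51 in starved and 0.25 in replete cells over 54 genes measured in both, and 13 were called higher in starved cells and 1 lower. Marked genes had 0.55 and 0.14 over 98 genes, with 33 called higher. NOG2 had mRNA of 173 RPKM with and 54.8 RPKM without CHX in replete cells, and DBP2 105 RPKM with and 102 RPKM without CHX, so that NOG2 was higher with CHX in both states and DBP2 nearly level in replete cells. Cyclins had a larger median in replete than in starved cells (0.57 and 0.31), and trehalose and glycogen genes had -0.79 in replete and 0.00 in starved cells, with 8 called higher in starved cells. The respiratory chain (-0.49 replete, -0.44 starved) and the vacuolar ATPase (-0.36 replete, -0.50 starved) were lower with CHX in both states. Without the strain block 11 unmarked genes were called higher for mRNA and 0 lower, and 0 and 0 for footprints.

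**Figure D5:**
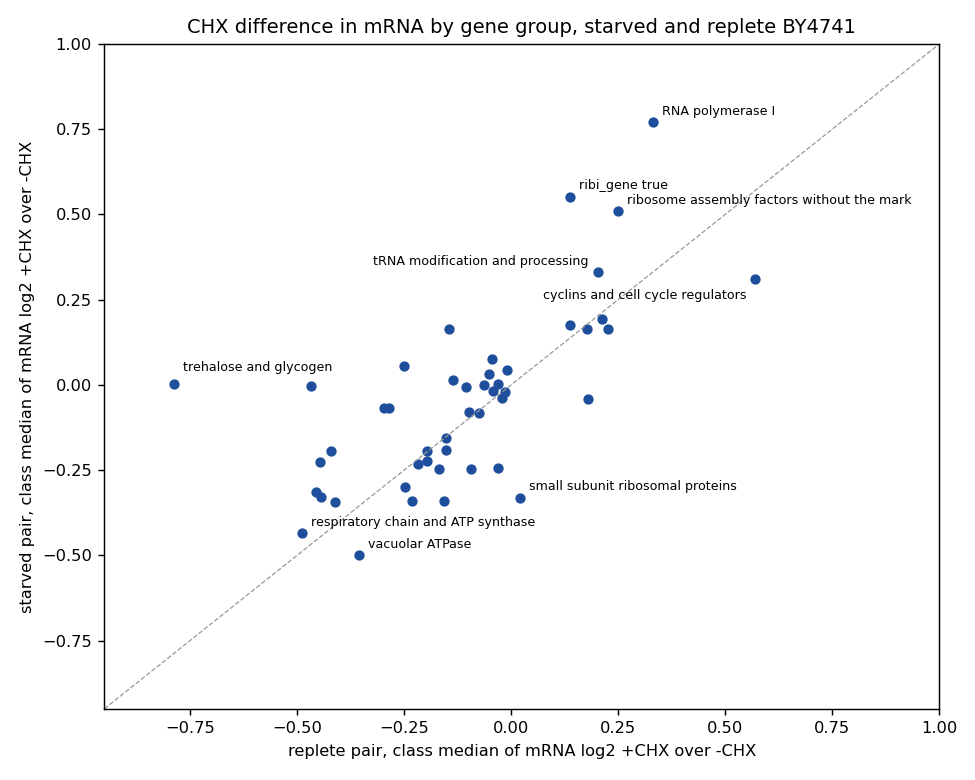
Each point is a gene class, with its median mRNA difference (+CHX over -CHX, log2) in the replete BY4741 pair on the horizontal axis and in the starved pair on the vertical axis, over genes measured in both, and the dashed line marks equal values. Marked genes (0.55 starved, 0.14 replete), assembly factors without the mark (0.51, 0.25) and the 7 RNA polymerase I genes measured in both (0.77, 0.33) lie above the line, and cyclins (0.31, 0.57) below it.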

How the data were processed

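For BY4741 and the reporter strains the deposited files give, per CDS, read counts that the authors did not normalize and RPKM values that the authors scaled to CDS length and total reads. The RNA-seq libraries came from RNA depleted of rRNA, and footprints from RNase I digestion. The authors trimmed reads, removed rRNA reads and aligned the rest, with Bowtie 1.1.2, TopHat2 2.1.1 and build sacCer3 per the labels' processing notes, and counted them with plastid at the P-site (footprints) or the 5′-most base (RNA-seq), with non-unique positions and, per the methods, the first 30 and last 5 codons masked. TE and log2 differences were computed from RPKM. Counting intervals are exact binomial at 95% and cover counting error only. Replicates of the pair were not available to this comparison. Each p-value of the fits with the strain block rests on how the +CHX change from replete to starved differed among the 4 strains. It does not measure the spread among -CHX samples.

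Counts were fitted with edgeR 4.0.16 (TMM, quasi-likelihood, genes with a mean of at least 128 mRNA and 1 footprint counts, R 4.3.3), TE as an interaction with library type, after a test on simulated data. The +CHX replete and starved cells of each strain came from 1 culture, and their deviations correlated with r of 0.8153, 0.6246, 0.6678 and 0.5803 (mRNA) and 0.7569, 0.4974, 0.47 and 0.5361 (footprints) in BY4741, yJW1861, yJW1862 and yJW1863, which the shared mask can also give. The sources do not say that the -CHX samples share the BY4741 culture. The members, the 45 class lists and the rules were chosen with earlier results of these data known. Named genes are unmarked genes called in the fit with at least 32 footprints on average and the 8 largest differences per direction and measure, up to 4 members per class, genes the study names, 4 regulators and 4 deleted markers. 0 columns were left unmatched. Gene lengths come from the RefSeq table. Alternatives were other minimums and folds, no subtraction, TMM-scaled CPM, RLE factors, DESeq2 1.42.0, no filter, no block, starved samples alone, each strain left out, and, added after the data were seen, reporter strains in place of BY4741 with and without the mask matched.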

Additional observations from a re-analysis of the deposited data

Results flagged for a closer look

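The CHX effect on mRNA in starved cells minus that in replete cells passed the edgeR test for 28 of the named unmarked genes, at adjusted p-values from 0.000638 (NOP1) to 0.0431 (HAC1). Among genes of ribosome and tRNA production this log2 difference was 1.654 for NOG2, 1.295 for CIC1, 1.546 for PWP1, 1.776 for DBP2, 0.8514 for ARX1, 1.328 for RPA49, 0.9604 for RPA135, 1.016 for DUS3, 1.056 for ELP2 and 0.8183 for ELP3. It was 1.7 for NOP1, which methylates rRNA, 1.068 for EBP2, 0.6353 for NMD3, 0.8678 for RRP9 and 0.8419 for SRP40, all on the list of assembly factors without the mark. Among genes of metabolism and transport it was 0.8169 for SER2, 0.8792 for PRO1, 1.293 for GUA1, 1.216 for FUR4, 0.8597 for FUI1, 1.375 for ZRT1, the high-affinity zinc transporter, and -1.288 for CIT2, the peroxisomal citrate synthase. It was 1.193 for HMT1, 0.9753 for TYE7, 0.5583 for FAR1, 1.124 for TSL1, 0.8801 for GLC3 and -0.834 for HAC1. TSL1 and GLC3 serve trehalose and glycogen synthesis.

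The levels behind these values differed in kind. ZRT1 had 114 mRNA RPKM with CHX and 52.5 RPKM without it in starved cells, against 2667 RPKM with and 2453 RPKM without it in replete cells. CIT2 was higher with CHX in both states, with 1404 RPKM with and 398 RPKM without it in starved cells, against 970 RPKM with and 105 RPKM without it in replete cells. TSL1 had 447 RPKM with CHX and 352 RPKM without it in starved cells, against 193 RPKM with and 303 RPKM without it in replete cells. In footprints the difference passed the test for 3 named genes, NMD3, an export adaptor of the large subunit (-1.643, adjusted p = 0.034), DBP2 (-1.626, adjusted p = 0.0458) and ARX1 (-1.509, adjusted p = 0.049). These calls use the strain block, and each -CHX state is 1 sample.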

How the results depend on the processing

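Every fit rests on 1 -CHX sample per state, and the strain block decided most calls. Without it edgeR called 266 unmarked genes higher and 130 lower in mRNA, 0 and 0 in footprints, 23 and 77 in TE, and for the starved minus replete difference 11 and 0 in mRNA and 0 and 0 in footprints. With starved samples alone it called 115 and 21 in mRNA and 0 and 0 in footprints. With each strain left out in turn, footprint calls ranged from 255 to 276 higher and 264 to 282 lower, TE calls from 324 to 437 higher, and calls of the starved minus replete difference from 65 to 139 higher and 10 to 41 lower in mRNA and from 0 to 9 higher and 0 to 3 lower in footprints, where DESeq2 called 34 and 20. Fewer samples enter those fits, and the cause was otherwise not tested.

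Unmarked genes at least 2-fold higher in mRNA numbered 210 without subtraction of the median, 124 with at least 32 mRNA counts, 413 at 1.5-fold, and 87 to 123 with reporter strains in place of BY4741, with or without the mask matched. Those lower in footprints numbered 1396 without subtraction and 590 at 1.5-fold, and 23 to 240 with reporter strains. Those lower in TE numbered 2145 without subtraction and 815 at 1.5-fold, and 107 to 496 with reporter strains. With at least 32 footprints the losses in length groups 1, 3 and 4, counted from the shortest, numbered 52, 17 and 13.

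Without subtraction, class medians in mRNA were 0.73 (assembly factors), 0.54 (cyclins), 0.39 (splicing), 0.40 (mitochondrial ribosomal proteins), -0.21 (respiratory chain), -0.27 (vacuolar ATPase), -0.11 (ER, proteasome and actin) and -0.10 (small subunit). In footprints they were -1.07 (assembly factors), -1.43 and -1.25 (RNA polymerases I and III), -1.11 (large subunit), -1.13 (initiation factors), -1.01 (histone chaperones), -0.88 (splicing), -0.063 (peroxisomal) and -0.16 (trehalose), and in TE -1.71 (assembly factors), -1.41 (tRNA) and -0.20 (respiratory chain). With reporter strains in place of BY4741, with or without the mask matched, mRNA medians ranged over 0.39 to 0.63 (assembly factors), 0.12 to 0.30 (splicing), 0.14 to 0.32 (mitochondrial ribosomal proteins), -0.55 to -0.15 (respiratory chain), -0.45 to -0.30 (vacuolar ATPase), -0.32 to -0.17 (ER), -0.29 to -0.010 (proteasome), -0.36 to -0.21 (actin) and -0.50 to -0.051 (small subunit). TE medians of tRNA enzymes ranged over -0.70 to -0.47. Footprint medians ranged over -0.60 to -0.018 (assembly factors), -0.54 to 0.047 (RNA polymerase III), 0.015 to 0.58 (large subunit), -0.31 to 0.075 (initiation factors), -0.54 to -0.036 (histone chaperones), -0.53 to 0.17 (splicing), 0.15 to 0.33 (peroxisomal), -0.27 to 0.56 (trehalose) and -1.49 to 0.066 (mitochondrially encoded).

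Single genes turned in the fits without the block and with starved samples alone: footprints of TMA7 (0.54 and 0.63), HSK3 (1.76 and 1.85), RPB10 (0.073 and 0.16), RPL39 (2.19 and 2.28), ATX1 (0.93 and 1.02), NOP10 (1.01 and 1.09) and SUI1 (0.61 and 0.69), mRNA of HSK3 (0.015 and 0.015) and SUI1 (0.38 and 0.38), and, without the block, TE of HSK3 (1.76), RPL39 (0.92) and SUI1 (0.24). The reporter strains carry another CDS mask in these fits. Of the named calls, 51 of 78 in mRNA, 0 of 57 in footprints and 33 of 78 in TE were still called without the block. Grouping by promoter motif and by protein composition was not run, for lack of sequences here.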

Other observations

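Among the lists not described above, median mRNA differences lay between -0.33 for glycolysis and fermentation (25 genes, 2 rises and 6 falls) and 0.17 for zinc, phosphate and iron responsive genes (33 genes, 10 rises and 5 falls). Losses of mRNA outnumbered gains among redox defence genes (28 genes, median -0.30, 1 rise and 12 falls), phospholipid and fatty acid synthesis (28 genes, -0.23, 3 and 12), ergosterol synthesis (25 genes, -0.25, 0 and 9), cytosolic aminoacyl-tRNA synthetases (22 genes, -0.20, 1 and 9), nuclear transport factors (22 genes, -0.19, 2 and 9) and the tricarboxylic acid cycle (24 genes, -0.29, 4 and 9). In TE, glycolysis had a median of 0.50 (3 rises, 0 falls) and redox defence 0.53 (11 rises, 1 fall). In footprints, cell wall proteins (38 genes, median 0.19) had 7 rises and 1 fall, nitrogen source genes (29 genes, 0.21) 6 rises and 0 falls, and mRNA decay factors (32 genes, -0.14) 1 rise and 6 falls. Sulfur assimilation (34 genes) had a footprint median of 0.41 with 2 rises and 1 fall, and core histones (8 genes) 0.41 with 3 rises and 0 falls. With a reporter strain in place of BY4741 these footprint medians were between -0.39 and -0.19 for sulfur assimilation, -0.20 and -0.03 for histones, -0.25 and -0.18 for cell wall proteins, and -0.25 and 0.22 for nitrogen source genes. With the mask matched they were between -0.16 and 0.01, 0.17 and 0.35, 0.34 and 0.62, and 0.32 and 0.74, in that order. DNA replication genes (51) had a median of -0.01 in mRNA (10 rises, 9 falls) and -0.19 in footprints (1 rise, 3 falls).

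Unmarked genes beside a marked gene were set against the rest. The 72 unmarked genes that share a divergent promoter region with a marked gene had a median mRNA difference of -0.01 and 20 of them rose (27.8%), against 886 of 4448 unmarked genes with no marked neighbour (19.9%), whose median was also -0.01. Convergent neighbours (82 genes, median 0.05) rose in 24.4% and tandem neighbours (127 genes, median 0.01) in 21.3%, and in TE the tandem median was -0.14, against 0.01 without a marked neighbour. These shares are descriptions, and their differences were not tested.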
